A study of Drosophila melanogaster with 10 samples.

Results

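The vacuolar proton pump (V-ATPase) genes of the fruit fly were taken as all genes whose symbol begins with Vha and that at least 1 probe set names alone in the platform annotation. This gave 29 of the 10845 genes so named, on 32 probe sets, and where a gene had more than 1 probe set the brightest by mean stood for it. RNA came from whole adult females of Drosophila melanogaster, from 5 lines selected for heat resistance and from 5 unselected control lines, with 1 array per line. The design text calls the lines independent, and errors below are therefore between lines. The flies' age, strain and treatment before sampling are not given in the labels used here.

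The V-ATPase is a rotary machine that spends ATP to move protons across membranes. A cytosolic V1 sector of subunits A to H hydrolyses ATP and turns a central stalk, and the membrane sector V0 (subunits a, c, c'', d and e) carries the protons. The pump acidifies lysosomes, endosomes and synaptic vesicles in nearly every cell, and in insect epithelia such as the Malpighian (renal) tubule it sits in the plasma membrane and powers ion and fluid transport. Most subunits have a widely expressed gene and paralogues used in a few tissues, many of them best known from the testis.

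Members were sorted by this textbook knowledge, not by their level here, into 13 principal genes, each the widely expressed gene of its subunit, and 16 other paralogues. Earlier results of these data were known when this was done. The members lie on chromosome arms 3R (12), 2R (7), 2L (4), 3L (4) and X (2). Of the 15 genes written down as principal, Vha68-2, a gene of the catalytic A subunit, was not analysed here for want of a probe set naming it, nor were the paralogues Vha68-1, Vha100-3 and Vha16-3. The accessory gene VhaM8.9 is annotated as ATP6AP2 and so falls outside the symbol rule.

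The arrays had median intensities of 41.9 to 48.3, and values are given as log2(intensity + 1). A total of 10960 features were bright enough to be tested, and limma called 0 of them at an adjusted p under 0.05, with 1043 at an unadjusted p under 0.05. Line 1 of both groups stood apart: the 3' probe sets of fly control transcripts exceeded the 5' ones by 2.76 (log2) in selected line 1 and 2.27 in control line 1, and at most 1.93 in any other line. Marker sums of some tissues differed between the groups, though 0 markers of any list passed at an adjusted p under 0.05 (limma). Intensities summed over 8 yolk and eggshell genes ran from 68634 to 93540 in the selected lines and from 93785 to 113428 in the control lines. Over 8 muscle genes the sums ran from 11238 to 18493 in the selected lines and from 4969 to 11497 in the control lines, so that these overlapped. All 8 muscle genes were higher in the selected lines at an unadjusted p under 0.05 (limma), beside 5.55% of all features. The 8 yolk and eggshell genes all had lower means there, and 7 were lower at that p, beside 3.97% of all features. As a check of the label, the 8 yolk and eggshell genes had mean levels of 11.1 to 14.7 (log2), while 8 of 9 testis genes did not exceed the brightest control probe set from another organism (3.64). In whole-body RNA, fewer cells of a type and less RNA per cell cannot be told apart.

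The widely expressed pump genes differed little, on the median, between heat-selected and control flies. Of the 26 members bright enough to be tested, 0 passed limma's test at an adjusted p under 0.05, against 0% of all features (the lowest adjusted p of a member was 0.262). VhaAC45RP and Vha36-1 alone had an unadjusted p under 0.05, 2 of 26 beside 9.52% of all features. Both were higher in the selected lines, beside 5.55% of all features in that direction, and 0 members were lower at that p, beside 3.97%. Means were higher in the selected lines for 19 of the 26 and lower for 7, and 53.7% of all features had the higher mean there. In 0 members did the groups separate completely, beside 1.59% of all features. The median difference, selected minus control, was 0.012 over the 13 principal genes. It was 0.043 over the 13 other paralogues tested, beside 0.0075 over all features. Among these paralogues, the 8 that averaged above every control probe set from another organism had a median of 0.118, with 6 higher and 2 lower means. The 5 that did not had a median of 0.012, with 5 higher and 0 lower means. For 11 of 13 principal genes, all but VhaSFD and Vha100-2, the 95% interval of the difference lay within 0.5 on either side of 0, as it did for 83.2% of all features, and over all 13 the intervals reached down to a fold of 0.787 (VhaAC45) and up to one of 1.503 (VhaSFD).

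**Figure D1:**
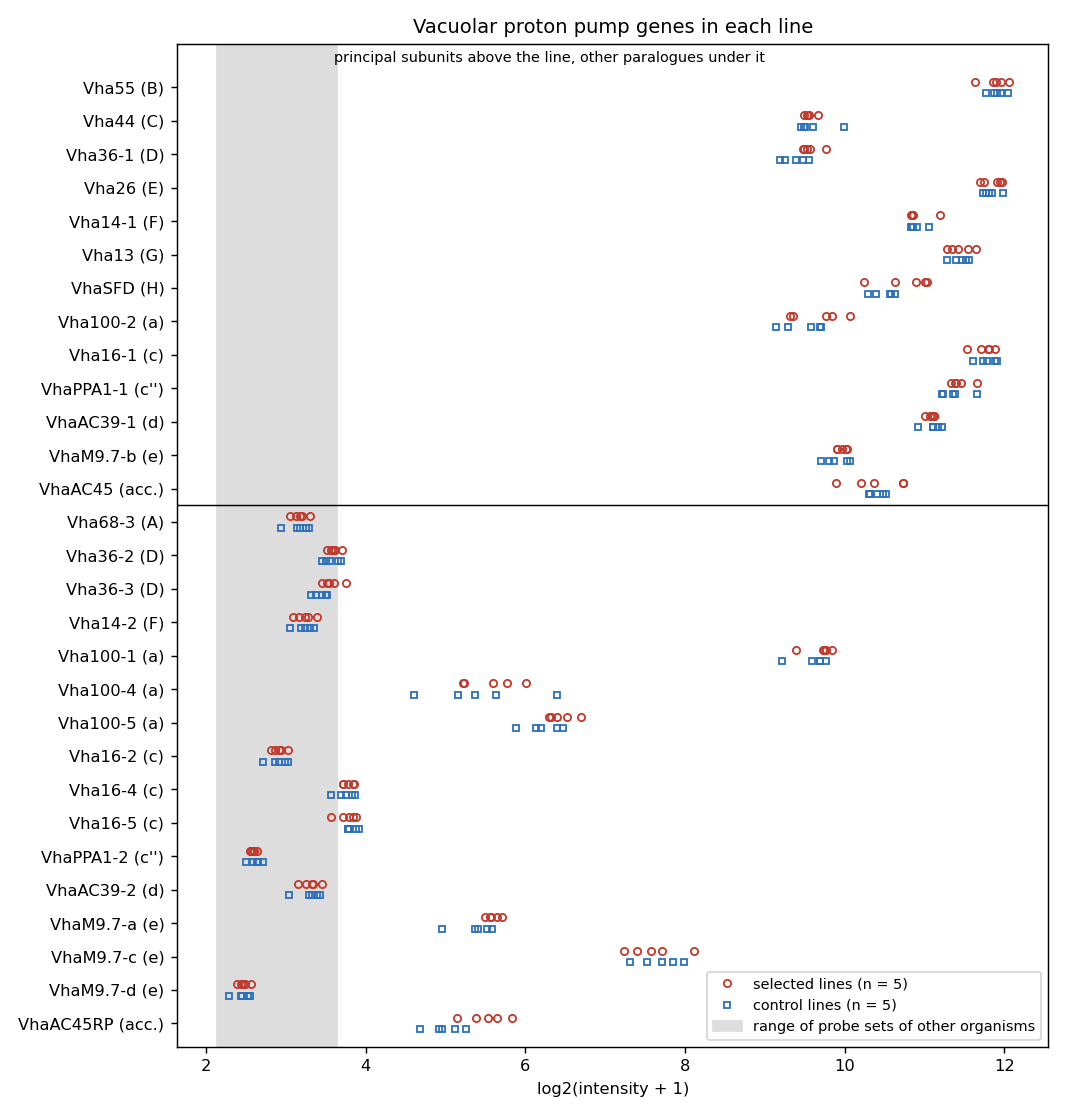
Level of each of the 29 members in each line, as log2(intensity + 1), with selected lines as red circles above control lines as blue squares (n = 5 each) and the subunit in brackets. The 13 principal genes all lie above 9 and to the right of the grey band, the range of 23 probe sets of other organisms (2.13 to 3.64), while 8 of the 16 other paralogues average inside it.

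All 13 principal genes were far brighter than the 23 probe sets of other organisms on the array, which reached 3.64 on the log2 scale and mark the level where a value carries little information. Brightness depends on the probes as well as on the transcript, so members are set against this band and not against each other. Of the 16 other paralogues, 8 averaged above the band. Vha100-1, an a subunit best known from neurons and their synaptic vesicles, lay at 9.39 to 9.84 in the selected lines and 9.21 to 9.77 in the control lines. VhaM9.7-c, VhaM9.7-a, Vha100-5, Vha100-4 and VhaAC45RP had middling levels. Vha16-5 (mean 3.79) and Vha16-4 (3.76) lay just outside the band, and Vha36-2 (3.58) and Vha36-3 (3.50) just inside it.

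The 8 paralogues inside the band were Vha68-3 (subunit A), Vha36-2 and Vha36-3 (D), Vha14-2 (F), Vha16-2 (c), VhaPPA1-2 (c''), VhaAC39-2 (d) and VhaM9.7-d (e). Vha16-2, VhaPPA1-2 and VhaM9.7-d did not pass the filter on low values and were not tested. From array to array the average of the dim paralogues varied together with that of the probe sets of other organisms, which have no target in the fly. Averaged over the 8 genes after centring each, their level was -0.093, -0.00058, 0.0058, 0.12 and 0.029 in selected lines 1 to 5 and -0.18, 0.087, 0.066, -0.024 and -0.0072 in control lines 1 to 5. The same average over the foreign probe sets was -0.091, -0.037, 0.0073, 0.13 and 0.038 in selected lines 1 to 5 and -0.21, 0.11, 0.075, -0.036 and 0.0072 in control lines 1 to 5. All 8 genes were lowest of all 10 lines in control line 1, and 7 of 8 were highest among selected lines in line 4. Vha36-3 was highest in selected line 2 (3.75). With group means removed, its Pearson r with the other dim paralogues was 0.29 to 0.51, and -0.37 to -0.046 without line 1. VhaPPA1-2 had an r of 0.16 to 0.44 without line 1 with the dim paralogues other than Vha36-3. Over the 10 arrays, which share probe type and normalization, the 2 averages had a Pearson r of 0.989, given as a description. As the 8 genes lie inside the band and their average followed it, nothing is read from their small differences between groups.

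**Figure D2:**
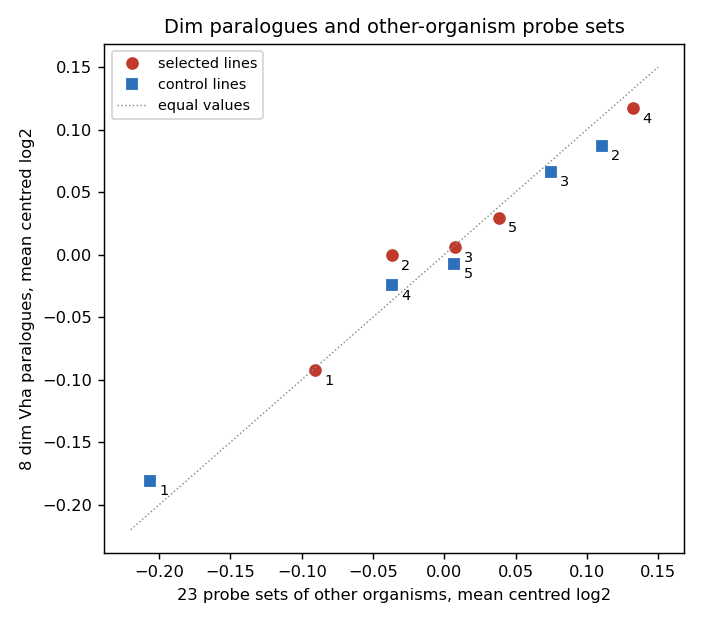
Mean centred log2 level of the 8 dim paralogues (vertical axis) against that of the 23 probe sets of other organisms (horizontal axis), 1 point per array, red circles for selected and blue squares for control lines, numbered by line. The points follow the dotted line of equal values, from control line 1 (-0.18 against -0.21) to selected line 4 (0.12 against 0.13).

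In the V1 sector, the differences of the head and stalk genes were small beside their errors, except for that of Vha36-1. Vha55, the B subunit that alternates with A in the ATP-hydrolysing head, had 11.86, 12.06, 11.95, 11.63 and 11.89 in selected lines 1 to 5 and 11.77, 11.87, 11.91, 12.05 and 11.96 in control lines 1 to 5. The selected lines covered the whole control range, with line 4 below it and line 2 just above it, and the difference was -0.033 ± 0.087 (SE; 95% interval -0.22 to 0.16). Of the peripheral stalk subunits, which hold the head still, Vha26 (E) differed by 0.025 ± 0.078 and Vha13 (G) by 0.0023 ± 0.085. Vha14-1 (F), part of the turning central stalk, differed by 0.012 ± 0.085. Vha44 (C), a clamp that joins the sectors and is released when the pump is taken apart, differed by -0.054 ± 0.10, and its highest line was control line 1 at 9.99, with the other 9 lines at 9.45 to 9.66.

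Vha36-1, the D subunit that forms the axle of the central stalk, was the principal gene with the smallest p. It had 9.48, 9.76, 9.57, 9.49 and 9.53 in selected lines 1 to 5 and 9.55, 9.48, 9.25, 9.19 and 9.38 in control lines 1 to 5. All 5 selected lines were above the control median and 2 were above every control line. The groups overlapped through control line 1 alone, but control line 2 (9.476) was only barely below the lowest selected line (9.477). Means were 9.57 ± 0.12 in the selected lines and 9.37 ± 0.15 in the control lines (SD, n = 5 each), and the difference of 0.20 ± 0.087 (SE) did not pass (unadjusted p = 0.0452, adjusted p = 0.510, limma). Without line 1 of both groups the difference was 0.26 (adjusted p = 0.20, limma). Its dim paralogues Vha36-2 and Vha36-3 differed by 0.028 ± 0.069 and 0.14 ± 0.073, at levels inside the band of foreign probe sets.

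VhaSFD, the H subunit that brakes ATP use by free V1 sectors, had 10.25, 10.63, 11.01, 11.03 and 10.89 in selected lines 1 to 5 and 10.29, 10.39, 10.57, 10.58 and 10.63 in control lines 1 to 5. Of the selected lines, 4 were above every control line, if barely for line 2, and line 1 was below every one. The difference was 0.27 ± 0.14 (SE; adjusted p = 0.643, limma), and 0.35 without line 1 of both groups (unadjusted p = 0.00644, adjusted p = 0.151, limma). In that setting 13.8% of all features had an unadjusted p under 0.05, against 9.52% with all lines. A second probe set of VhaSFD showed the same low line 1, with 8.58 in selected line 1 and 9.76 to 10.18 in the other selected lines, and 8.81 in control line 1 and 9.50 to 9.76 in the other control lines. On it the difference was 0.20 ± 0.29 (SE). Line 1 of each group thus had the lowest VhaSFD value on both probe sets and the largest 3' excess, and the part of RNA quality in the difference was not tested.

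**Figure D3:**
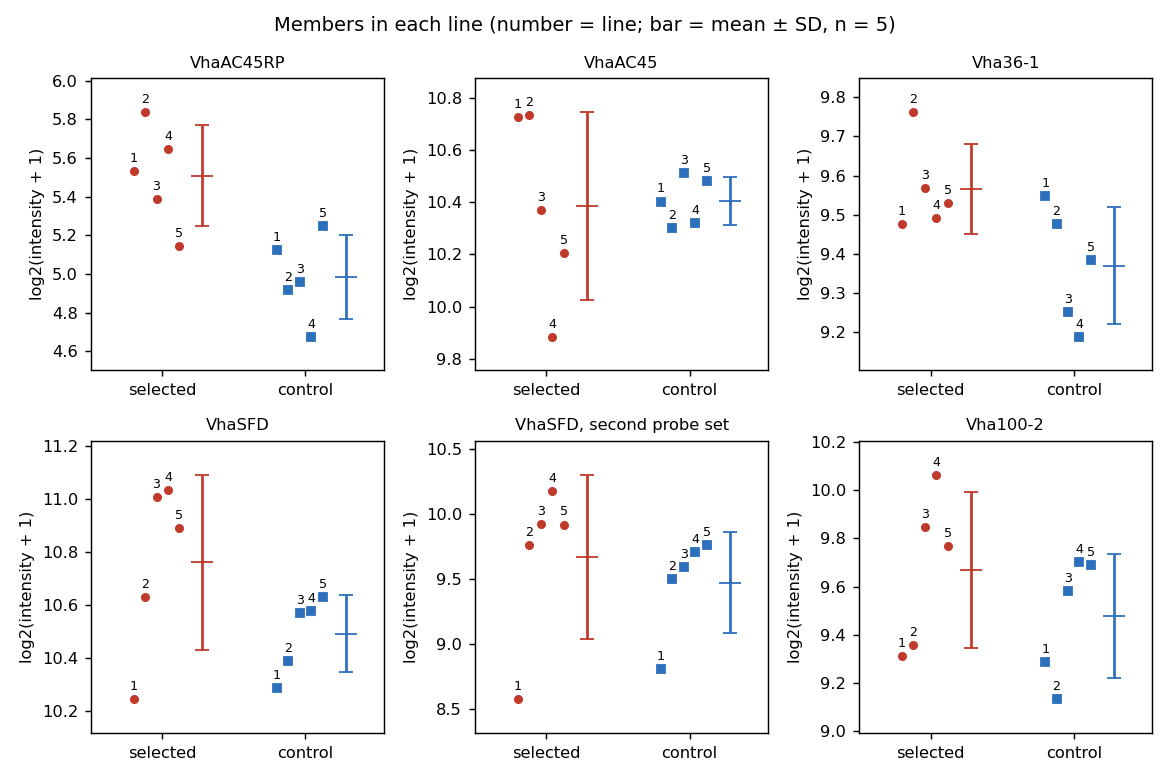
Line values of VhaAC45RP, VhaAC45, Vha36-1, both VhaSFD probe sets and Vha100-2, as log2(intensity + 1), with selected lines in red left of control lines in blue, numbers for lines, and bars for mean ± SD (n = 5 each). VhaAC45RP overlaps only through selected line 5 (5.15) and control line 5 (5.25), VhaAC45 spreads from 9.89 to 10.73 in the selected lines, and in both groups lines 1 and 2 of VhaSFD and Vha100-2 lie below lines 3 to 5.

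In the V0 sector the differences of the ring and its connector were within their errors. Vha16-1, the proteolipid that makes up most of the proton-carrying c ring, differed by -0.040 ± 0.084 (SE), and its line values ran from 11.53 to 11.88 in the selected lines and from 11.61 to 11.91 in the control lines. VhaPPA1-1 (c''), a larger proteolipid of the same ring, differed by 0.073 ± 0.095. VhaAC39-1 (d), which couples the ring to the central stalk, differed by -0.024 ± 0.069, the smallest standard error of any member, and VhaM9.7-b (e), a small membrane subunit, by 0.070 ± 0.080. The selected lines lay close together for both, at 11.00 to 11.12 and 9.90 to 10.03, inside the control ranges of 10.92 to 11.22 and 9.71 to 10.07. Second probe sets of Vha16-1 and VhaPPA1-1 were dimmer, and gave -0.12 ± 0.084 and -0.011 ± 0.062 (SE).

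The a subunit, which holds the half-channels that protons cross and steers the pump to its membrane, was measured for 4 genes. Vha100-2, the widely expressed one, had 9.31, 9.36, 9.84, 10.06 and 9.77 in selected lines 1 to 5 and 9.29, 9.13, 9.58, 9.7 and 9.69 in control lines 1 to 5. In both groups lines 1 and 2 were the lowest, and the groups overlapped widely (0.19 ± 0.16, SE, adjusted p = 0.912, limma). Vha100-4, known from the acid-secreting copper cells of the midgut, lies next to Vha100-2 on arm 3R with 0 genes between them in the RefSeq order. It had 6.01, 5.23, 5.77, 5.22 and 5.60 in selected lines 1 to 5 and 6.40, 4.60, 5.15, 5.36 and 5.64 in control lines 1 to 5. These control lines spread wider than for any other member (1.80 between lowest and highest), the highest being line 1, and the 95% interval of the difference, -0.49 to 0.76, spans values of either sign. Vha100-1 differed by 0.10 ± 0.12 (SE; 95% interval -0.16 to 0.36). Vha100-5 differed by 0.23 ± 0.12, with all 5 selected lines above the control median and 2 above every control line. Control line 2 was the lowest control line for all 4 genes, and without it the difference was 0.0055 for Vha100-1, 0.10 for Vha100-2, -0.071 for Vha100-4 and 0.15 for Vha100-5. Without selected line 4 that of Vha100-2 was 0.092. That of Vha100-4 ran from -0.071 to 0.38 (without control line 1) as each line was left out.

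Of the paralogues of the small e subunit, VhaM9.7-a and VhaM9.7-c lay well above the band of foreign probe sets, and VhaM9.7-d lay inside it. VhaM9.7-a had 5.49 to 5.70 in the selected lines and 4.96 to 5.58 in the control lines, a difference of 0.23 ± 0.11 (SE; adjusted p = 0.561, limma), and its control minimum was line 3, without which the difference was 0.12. VhaM9.7-c had 8.12, 7.71, 7.39, 7.23 and 7.57 in selected lines 1 to 5 and 7.99, 7.85, 7.71, 7.52 and 7.31 in control lines 1 to 5, with line 1 highest in both groups, and differed by -0.070 ± 0.17. Whether the differences of these genes differ from each other was not tested. Vha16-4 and Vha16-5, c paralogues just above the band, differed by 0.043 ± 0.072 and -0.074 ± 0.073. Over the 8 lines other than line 1, with group means removed, Vha16-4 had a Pearson r of 0.89 to 0.98 with most dim paralogues. Its r was lower with Vha36-3 (0.037) and VhaPPA1-2 (0.15). No more is read from the difference of Vha16-4 than from those of the dim paralogues.

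**Figure D4:**
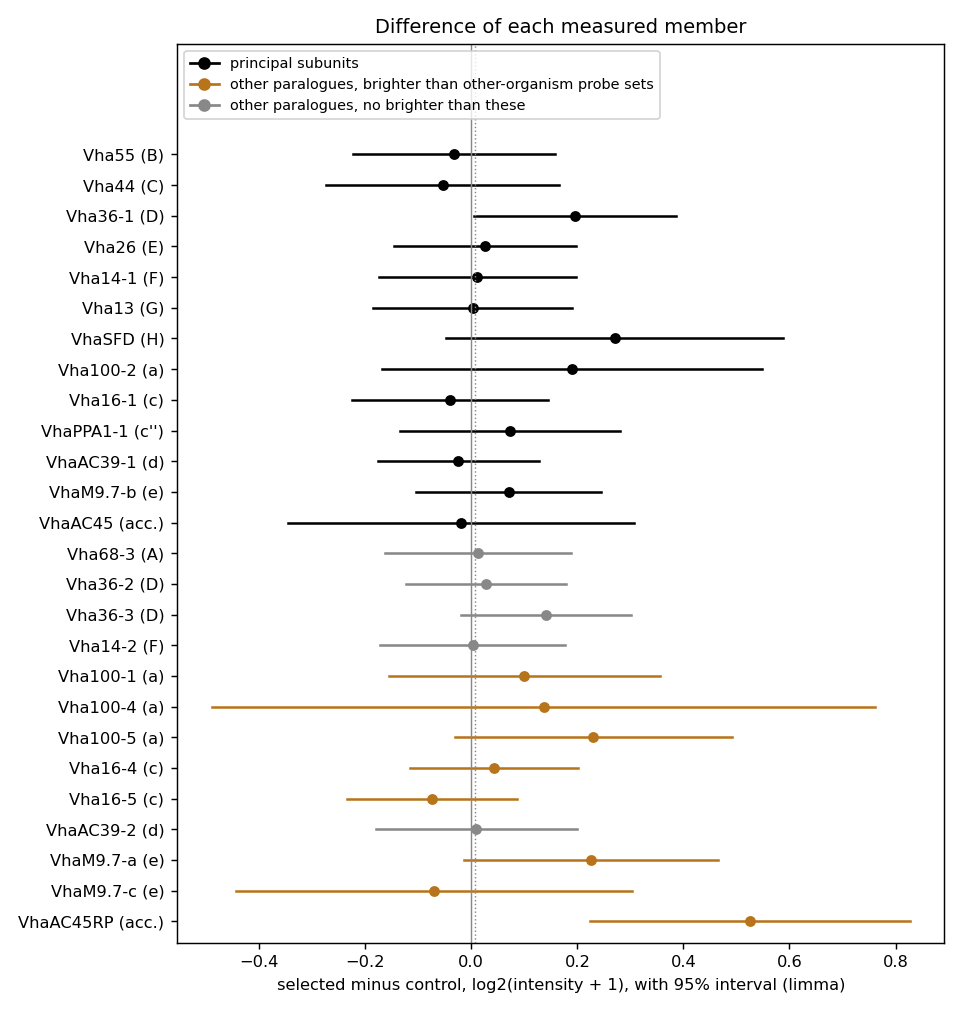
Difference of each of the 26 tested members, selected minus control on the log2(intensity + 1) scale (horizontal axis), with its 95% interval from limma, in black for principal genes, orange for other paralogues above the band of foreign probe sets and grey for those inside it. The dotted line is the median of all features (0.0075), and the intervals of VhaAC45RP (0.22 to 0.83) and Vha36-1 (0.0050 to 0.39) alone lie above 0.

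The largest difference among the members was in an accessory gene. VhaAC45RP is a relative of the accessory subunit Ac45, and in the fly it is known from neurons, where it is needed to acidify synaptic vesicles. It had 5.53, 5.84, 5.39, 5.64 and 5.15 in selected lines 1 to 5 and 5.12, 4.92, 4.96, 4.68 and 5.25 in control lines 1 to 5. Of the selected lines, 4 were above every control line, and line 5 was below control line 5 only. Means were 5.51 ± 0.26 in the selected lines and 4.98 ± 0.22 in the control lines (SD, n = 5 each), a fold of 1.44 with a 95% interval of 1.17 to 1.77. The difference of 0.52 ± 0.14 (SE) ranked 113 of 10960 features by p and did not pass (unadjusted p = 0.00273, adjusted p = 0.262, limma). It was 0.55 without line 1 of both groups, where the adjusted p from limma was 0.164.

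Values of neuronal markers are set beside VhaAC45RP. Of 8 markers written down, 6 were tested, and all 6 had higher means in the selected lines, beside 53.7% of all features. Of the 6, 0 passed at an adjusted p under 0.05, and 3 had an unadjusted p under 0.05, beside 5.55% of all features that were higher at that p. Their summed intensity was 136, 167, 160, 173 and 143 in selected lines 1 to 5 and 129, 123, 121, 126 and 141 in control lines 1 to 5. The highest control value was in line 5 for both this sum and VhaAC45RP. It was above selected line 1 for the sum and above selected line 5 for VhaAC45RP, each being the lowest selected line. The sodium channel gene para (mean 3.59) was inside the band of foreign probe sets, and brp, a scaffold of the synapse, lay just above it at 3.93. The part of neural tissue in the difference was not tested.

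VhaAC45 itself, the Ac45 subunit that guides the pump through the secretory pathway, had 10.73, 10.73, 10.37, 9.89 and 10.21 in selected lines 1 to 5 and 10.40, 10.30, 10.51, 10.32 and 10.48 in control lines 1 to 5. Its means were 10.38 ± 0.36 in the selected lines and 10.40 ± 0.093 in the control lines (SD, n = 5 each), a difference of -0.019 ± 0.15 (SE). Selected lines 1 and 2 were above every control line and lines 4 and 5 below every one, so the selected lines differed among themselves around the control level. ATP6AP2 (VhaM8.9), the other accessory subunit, outside the symbol rule, differed by 0.0060 ± 0.086 (95% interval -0.18 to 0.19).

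Over these 10 lines, pairs of principal genes had positive and negative correlations in similar numbers. Of 78 pairs of principal genes, 41 had a positive Pearson r over the 10 lines after each group's mean was removed, with a median r of 0.035. Pairs ran from -0.89 (Vha13 with Vha100-2) to 0.87 (VhaSFD with Vha100-2). Vha55 of the head and Vha26 of the peripheral stalk varied together (r = 0.77). Over the 8 lines other than line 1 the median r was 0.16, and Vha13 with Vha100-2 was still at -0.85. For Vha14-1 with VhaSFD the r was -0.83 over all lines and 0.14 without line 1. These values are descriptions over arrays that share a platform and normalization. No background over all features is given for them or for the line 1 count that follows. Line 1 deviated from the other lines of its group in the same direction in both groups for 10 of the 13 principal genes. It was higher for Vha14-1 (by 0.35 in the selected and 0.20 in the control group) and Vha13 (by 0.25 and 0.14), and lower for VhaSFD (-0.65 and -0.25), Vha100-2 (-0.45 and -0.24) and Vha16-1 (-0.27 and -0.21).

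Genes that work with the pump were looked at beside it. Rbcn-3A and Rbcn-3B are known to help put V1 and V0 together, and Mitf is a transcription factor that drives pump and lysosome genes in the fly. Rbcn-3B differed by 0.13 ± 0.21 and Mitf by -0.16 ± 0.32 (SE), and Rbcn-3A was not analysed here. Mitf lay at 5.41 to 5.90 in the selected lines, within the control lines' wide range of 4.85 to 6.65. Of 13 lysosome genes tested, 9 had higher and 4 lower means, while 53.7% of all features had the higher mean. Their median was 0.029, beside 0.0075 over all features. Of the 13, 0 passed at an adjusted p under 0.05, beside 0% of all features. The hexosaminidase gene Hexo2 had the smallest p and was lower, at 7.89 to 8.22 in the selected lines and 8.19 to 8.41 in the control lines (-0.19 ± 0.081, SE, adjusted p = 0.486, limma). Cln3, Npc2a and the protease gene CtsB came next, at 0.24 ± 0.17, 0.12 ± 0.096 and 0.092 ± 0.082. Of 5 genes of the Rag and Ragulator proteins, which dock the growth kinase TOR to the lysosome beside the pump, 0 passed, beside 0% of all features. Their median was -0.015, with 2 higher and 3 lower means. Those with the smallest p were Lamtor1 (-0.13 ± 0.091), Lamtor3 (0.16 ± 0.12), RagC-D (0.029 ± 0.067) and Lamtor5 (-0.037 ± 0.108).

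The proton gradient also drives vesicular transmitter loading and epithelial ion exchange. Of the vesicular transporters tested, Vmat, which loads monoamines, had 6.72 to 7.39 in the selected lines and 6.28 to 6.80 in the control lines (0.50 ± 0.15, SE, adjusted p = 0.306, limma). Its lowest selected lines were 1 and 5, as for the summed intensity of the neuronal markers. This did not hold for each marker, as ChAT was highest among the selected lines in line 1 (4.57). The other transporter tested, prt, was inside the band of foreign probe sets (0.025 ± 0.077). Of 12 ion transport genes, 8 had higher and 4 lower means, with a median of 0.036, and 53.7% of all features had the higher mean. Of the 12, 3 were higher at an unadjusted p under 0.05, beside 5.55% of all features, and 0 passed. NKCC, a cotransporter of sodium, potassium and chloride, was above every control line in all 5 selected lines, at 5.77 to 6.3 in the selected lines and 5.42 to 5.61 in the control lines (0.44 ± 0.094, SE, adjusted p = 0.234, limma). The groups separated completely, in either direction, for 1.59% of all features. The carbonic anhydrase CAH1, an enzyme that supplies protons, differed by 0.29 ± 0.12, the potassium chloride cotransporter kcc by 0.17 ± 0.078 and CAH2 by 0.23 ± 0.12 (SE). Markers of the Malpighian tubule had higher means in 9 of 9 genes tested, beside 53.7% of all features. Of the 9, 0 passed at an adjusted p under 0.05, and 2 were higher at an unadjusted p under 0.05, beside 5.55% of all features. NaPi-T (mean 3.62) was inside the band of foreign probe sets. The 9 genes had summed intensities of 660 to 710 in the selected lines and 611 to 642 in the control lines. The smallest p were those of the potassium channel Irk3 (0.64 ± 0.15) and the chloride channel SecCl (0.27 ± 0.098). The part of tubule tissue in any member's difference was not tested.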

How the data were processed

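The authors deposited 1 intensity per probe set and array, on a linear scale as judged from the values, and GCRMA is named per the submitters' processing notes, with no version. This method corrects background by probe sequence and brings dim signals close to a floor, which shrinks differences of dim paralogues. Groups and line numbers come from the sample titles.

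Values were analysed as log2(intensity + 1). Probe sets above 3 on at least 5 of 10 arrays were kept whatever the group, and 44 control probe sets left out. The brightest probe set stood for a gene, probe sets naming no gene or several were each kept as a feature, and 10960 features were tested. limma 3.58.1 in R 4.3.3 (lmFit, eBayes, two-sided, Benjamini-Hochberg over all features, threshold 0.05) compared 5 selected with 5 control lines, and was tested on simulated data. Fold changes and intervals are on the log2(value + pseudocount) scale.

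Probe set names come from a platform annotation. All 29 members were found by gene identifier in a RefSeq table (Release 6 plus ISO1 MT), used for names, arms and gene order only. Members, subunit classes and gene lists were chosen with earlier results of these data known. All members are named, with up to 4 genes per other list by smallest p. ClC-a is in both the ion transport and the tubule list, and 20 of 101 list entries had no probe set naming them alone. Lists of muscle, yolk and eggshell, testis, neuron, tubule and midgut markers were checked. Of 6 midgut genes, 3 had higher and 3 lower means, with sums of 17862 to 23921 in the selected lines and 17455 to 22749 in the control lines. At an unadjusted p under 0.05 (limma), 1 was higher, Mal-A1 (0.40 ± 0.17, SE), beside 5.55% of all features. Lower at that p were 2, Jon25Bii (-1.27 ± 0.26) and Jon99Ci (-0.73 ± 0.32), beside 3.97%. The groups separated completely for Jon25Bii, as for 1.59% of all features. Of the 6, 0 passed at an adjusted p under 0.05. Alternatives were the normalization, pseudocount, filter, probe set choice, spread model, a line-number block, the 3' excess, and lines left out. The number of arrays limits the precision.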

Additional observations from a re-analysis of the deposited data

Results flagged for a closer look

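A line far from the other 4 lines of its group was found in 3 of 58 member groups checked, and chance marks about 1 in 20. Vha14-1 was highest in selected line 1 (11.19), with the next selected line at 10.85. Vha100-1 was lowest in selected line 2 (9.39), with the next selected line at 9.73. Vha44 was highest in control line 1 (9.99), with the next control line at 9.60. Line 1 of both groups had the largest 3' excess on the control transcripts, and the part of RNA quality in the line 1 values was not tested.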

How the results depend on the processing

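All 26 tested members stayed above an adjusted p of 0.05 under the 18 other settings tried, with a lowest value of 0.139 from limma, and the move of each was under the spread between lines. VhaAC45RP kept its direction and an unadjusted p under 0.05 in all 18, at 0.38 (pseudocount of 16) to 0.62 (without selected line 5), with adjusted p of 0.139 to 0.580. The sign changed under at least 1 alternative for 15 members and under none for 11, Vha36-1, VhaSFD and Vha100-2 among them. The count of all features called, 0 with limma as reported, was 2 with line number as a replicate block and 0 to 3 with each line left out (1 without selected line 2 and 3 without control line 5). The count of members at an unadjusted p under 0.05, 2 as reported, was 4 with the 3' excess as a covariate (12.2% of all features at that p), 6 with the replicate block (13.4%) and 1 to 4 with each line left out: 4 without selected line 1 (11.4%) or control line 1 (12.3%), against 9.52% as reported, and 1 without selected line 2, 3 or 5 or control line 3, 4 or 5. With the 3' excess as a covariate VhaSFD and VhaM9.7-a joined the 2 genes. Without line 1 of both groups VhaSFD alone joined them, which gave 3 members, beside 13.8% of all features. With the block Vha100-2 (unadjusted p = 0.0264, adjusted p = 0.301, limma) and VhaSFD (0.0121 and 0.248) were among the 6. Deviations of same-numbered lines correlated at 0.20 to 0.55 over features for 4 of 5 numbers, and 5 of 10 lines correlated best with their own number. As number 5 was at 0.027, the numbers are not taken to pair the lines, and the block is given as an alternative only. Whether lines of the same number share an effect was not tested. The median over principal genes ran from -0.0042 (without selected line 2) to 0.064 (without selected line 4). That over the other paralogues was 0.010 with quantile normalization and ran from 0.0086 (without control line 1) to 0.065 (without control line 3). Adding ATP6AP2 and reading second probe sets on their own were chosen after seeing the data, and the first gave a principal median of 0.0088. The cause of these changes was not tested.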
